A study of Mus musculus with 60 samples.

Results

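Sox11, Sox4 and Sox12 are the 3 genes of the SoxC group, and they were described here across 16 peak lists of mouse dorsal root ganglia out of 21883 protein-coding genes in the RefSeq gene table used. The genes were chosen by name, with earlier results of these lists in view: that Sox11 had more ATAC peaks near it after sciatic axotomy than after sham surgery, and no H3K9ac peak, was already known. Every peak that touched a gene or the 100 kb on either side of it was taken, which gave 171 peaks for Sox11, 172 for Sox4 and 301 for Sox12, or 644 of 1658065 peaks in all lists. The ganglia were the L4 to L6 ganglia of C57BL/6 mice aged 6 to 8 weeks, taken 24 hours after 1 of 4 operations. Sciatic nerve axotomy (SNA) has a sham operation on that nerve (Sham) as its control, and dorsal column axotomy, which cuts the central branch within the spinal cord (DCA), has laminectomy alone (Lam) as its control. The mice carried no engineered allele that the labels name. The 4 assays were ATAC-seq, which marks DNA open to a transposase, and ChIP-seq for H3K9ac and H3K27ac, found at active promoters and enhancers, and for H3K27me3, found in repressed chromatin. Each ATAC list pooled 3 samples of 1 mouse each, and each ChIP list pooled 2 samples of 10 mice each, so no list has a replicate error and no difference between surgeries below could be tested. The ganglia were taken whole, so a peak carried by fewer cells and a weaker peak in every cell cannot be told apart.

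SoxC proteins are transcription factors that bind and bend DNA through a high-mobility-group box, and each is encoded by a gene without introns. In the developing nervous system they act after progenitors leave the cell cycle, where Sox11 and Sox4 turn on neuronal genes such as Tubb3 and Dcx, while Sox12 is the weakest activator of the group. Sox11 falls to a low level in adult sensory neurons, is induced by injury of their peripheral axon and is counted among the regeneration-associated genes.

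All 3 genes lie on the minus strand. Sox11 spans chr12:27334268-27342718 and Sox4 spans chr13:28948919-28953699, and no other protein-coding gene touches either window. The nearest one is Cmpk2 at 854 kb from Sox11 and Cdkal1 at 238 kb from Sox4. Sox12 spans chr2:152393611-152398046 among 9 neighbours, namely Tbc1d20, Rbck1, Trib3, Nrsn2, Zcchc3, 6820408C15Rik, Defb23, Defb20 and Defb22, and its nearest neighbour Zcchc3 is 13.9 kb away. Peaks in the Sox11 and Sox4 windows thus had no closer coding gene. In the Sox12 window, 2 or 3 of the 26 to 34 ATAC peaks of each list were nearest to an end of Sox12. Of the H3K9ac peaks there, 2 of 24 were nearest to it in DCA and none in Sham, SNA or Lam. For H3K27ac these were 4 of 21 in SNA, 2 of 16 in Lam, 1 of 11 in DCA and 0 of 8 in Sham. For H3K27me3, 1 of 12 in SNA was, and none in the other lists.

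The 250 bases before each start site are shown because an ATAC peak covered part or all of them in every list, although the 3 genes differ there in acetylation. They are the RefSeq sequences of GRCm38.p6 on the strand of the gene, at chr12:27342719-27342968 for Sox11, chr13:28953700-28953949 for Sox4 and chr2:152398047-152398296 for Sox12. Capitals mark matches, on either strand, to the CCAAT box (CCAAT) and the GC box (GGGCGG), the letters at which the general promoter factors NF-Y and Sp1 bind.
Sox11: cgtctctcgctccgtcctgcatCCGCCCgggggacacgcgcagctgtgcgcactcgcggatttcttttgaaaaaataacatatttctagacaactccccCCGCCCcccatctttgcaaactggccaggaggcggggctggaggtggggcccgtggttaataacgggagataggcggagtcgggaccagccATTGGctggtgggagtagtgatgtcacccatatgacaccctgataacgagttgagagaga
Sox4: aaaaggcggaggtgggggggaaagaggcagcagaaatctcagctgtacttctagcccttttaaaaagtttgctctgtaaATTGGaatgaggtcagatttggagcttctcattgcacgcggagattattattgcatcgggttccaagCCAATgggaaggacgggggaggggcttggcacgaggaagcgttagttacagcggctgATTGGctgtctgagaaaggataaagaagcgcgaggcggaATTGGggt
Sox12: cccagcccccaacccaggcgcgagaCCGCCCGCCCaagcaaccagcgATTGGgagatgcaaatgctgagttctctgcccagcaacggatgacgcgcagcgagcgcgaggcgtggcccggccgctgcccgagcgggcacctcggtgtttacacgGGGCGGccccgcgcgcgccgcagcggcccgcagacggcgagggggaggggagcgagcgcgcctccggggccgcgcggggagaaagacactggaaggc

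The GC content of these stretches was 58.0% for Sox11, 50.8% for Sox4 and 74.4% for Sox12, against a median of 52.4% over 32851 promoters of the table. Of all promoters, 4.58% were as rich in GC as that of Sox12. The ratio of observed to expected CpG was 0.810, 0.801 and 1.01 in the same order against a median of 0.373, so all 3 promoters were CpG-rich. Sox4 held 4 CCAAT boxes and no GC box, Sox11 held 1 and 2, and Sox12 held 1 and 3, with the first 2 GC boxes of Sox12 overlapping. A CCAAT box was present in 33.8% of all promoters and a GC box in 32.7%. None of the 3 stretches held the letters of an AP-1 site (TGANTCA, in 6.75% of promoters), a cyclic-AMP response element (TGACGTCA, 1.55%), a STAT site (TTCNNNGAA, 7.02%), a TATA box (TATAAA, 12.4%) or the Sox sites AACAAAG (5.03%) and AACAATG (3.29%).

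At the start sites, open chromatin was shared and acetylation was not. A peak within 1 kb of the start site was found for Sox11 in 7 of the 16 lists, for Sox4 in 11 and for Sox12 in 6, against a median of 9 over the 17491 genes with a start site in the promoter table. All 3 genes had an ATAC peak there after each operation, as did 68.2% of genes after Sham, 70.3% after SNA, 68.5% after Lam and 69.8% after DCA. H3K9ac was listed at none of the 3 start sites in every surgery. Sox4 had it in Sham, where 50.4% of genes did, in SNA (51.9% of genes) and in DCA (59.9%), but not in Lam (51.6%), and Sox12 had it in DCA alone. H3K27ac was listed at the Sox4 start in Sham (40.5% of genes), SNA (52.1%), Lam (51.5%) and DCA (43.6%), and at the Sox12 start in SNA alone. H3K27me3 was listed within 1 kb of the Sox11 start in Sham (19.6% of genes), SNA (14.8%) and Lam (22.1%), but not in DCA (7.13%), and it was listed at neither other start.

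Sox11 therefore belonged to the 960 genes with an ATAC peak at the start site in all 4 lists and no acetylated peak there in any, which is 8.86% of the 10832 genes open in all 4. Of these, 481 also had H3K27me3 in 3 or 4 lists, as Sox11 did, where 9.14% of all genes with a start site had it. The Sox11 peaks of H3K27me3 did not pass a q of 0.05. The combination seen at Sox12 had H3K9ac in DCA alone and H3K27ac in SNA alone. It was shared by 36 genes including Sox12, or 0.332% of the open genes. That pattern rests on the 1 kb distance. The nearest H3K27ac peak edge was 1.04 kb downstream of the Sox12 start in Lam and 1.18 kb in DCA. With 5 kb, Sox12 had a peak in 8 of the 16 lists. The combination at Sox4, with H3K27ac in every list and H3K9ac in all but Lam, was seen at 101 genes including Sox4. For comparison, 5049 genes carried ATAC, H3K9ac and H3K27ac in all 12 lists.

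**Figure D1:**
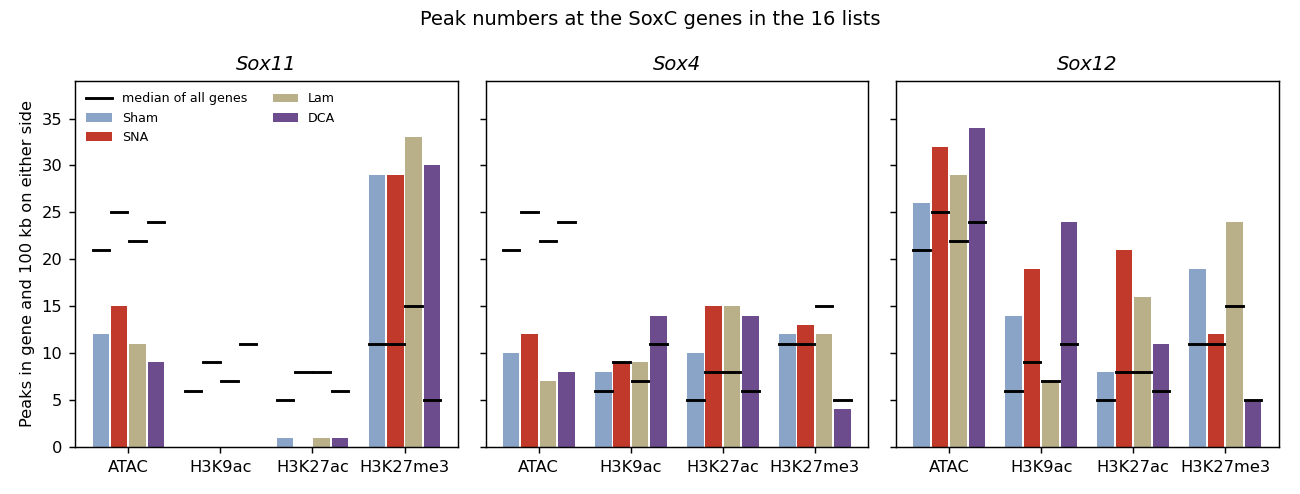
Number of peaks in each gene and 100 kb on either side (vertical axis) by assay, with 1 bar per surgery and a black line for the median over all protein-coding genes in that list. Sox11 has no H3K9ac bar and 29 to 33 H3K27me3 peaks per list, while Sox12 exceeds the median in all 4 ATAC lists.

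The start of Sox11 lay inside a wide ATAC interval after every operation. The ATAC peak ran over chr12:27341116-27343555 in Sham, chr12:27341151-27343570 in SNA, chr12:27341205-27343697 in Lam and chr12:27341230-27343676 in DCA, or 2440, 2420, 2493 and 2447 bp, and the deposited lists gave it 9, 7, 7 and 5 summits. At its strongest summit the reads recovered from the peak's fold and p numbered 51 in Sham (95% Poisson interval 38.0 to 67.1) over a background of 18.5. They numbered 73 (57.2 to 91.8) over 22.8 in SNA, 44 (32.0 to 59.1) over 17.7 in Lam and 59 (44.9 to 76.1) over 20.7 in DCA. The fold over background was 3.11 after SNA and 2.67 after Sham, and 2.76 after DCA and 2.41 after Lam. SNA was highest and Lam lowest, but the intervals of SNA and Sham overlapped, as did those of DCA and Lam, and all such intervals cover counting error only.

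Further ATAC sites of Sox11 differed between lists. Besides the start, 1 region of its 31 merged ATAC regions was in all 4 lists, with summits between 14.4 and 14.9 kb upstream and 38, 46, 44 and 42 reads in Sham, SNA, Lam and DCA over backgrounds of 16.2 to 18.4. Of the 31 regions, 21 were in 1 list only, which is 67.7% against 59.7% of all 368411 ATAC regions. The strongest ATAC peak of the SNA list in this window was not the start site but chr12:27390285-27390971, 47.9 kb upstream, with 70 reads (54.6 to 88.4) over 17.3 and a fold of 3.88. In Sham the overlapping peak had 39 reads (27.7 to 53.3) over 16.2 and a fold of 2.33, and neither Lam nor DCA listed one. The intervals of SNA and Sham did not overlap there, at a site picked because it was the strongest of the SNA list. At the commonest background level, the weakest listed peak had 28 reads in Lam and 30 in DCA, so a site below that would not have been listed. The strongest peak of the window was the start site in Sham and DCA, and in Lam the site 14.4 kb upstream with a −log10 p of 7.73.

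Within 10 kb of Sox11, ATAC peaks numbered 6 after SNA and 2 after Sham, and 2 after DCA and 1 after Lam. These were among the numbers known when the gene was chosen, and a net of 4 or more for SNA over Sham was seen at 13.5% of all genes. The 4 of these SNA peaks that no other ATAC list held were 5.37 kb upstream and 9.70, 10.7 and 17.9 kb downstream of the start. They had 30, 35, 40 and 34 reads over backgrounds of 17.3 to 17.7, and none overlapped an acetylated peak of SNA. The peak 5.37 kb upstream, with a −log10 p of 2.58, stood at 98.9% of its list ranked from the strongest. At the commonest background the weakest listed Sham peak had 27 reads, so a Sham site with fewer would not have been listed. A further peak in SNA alone, 12.6 kb upstream, had 47 reads over 17.3.

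**Figure D2:**
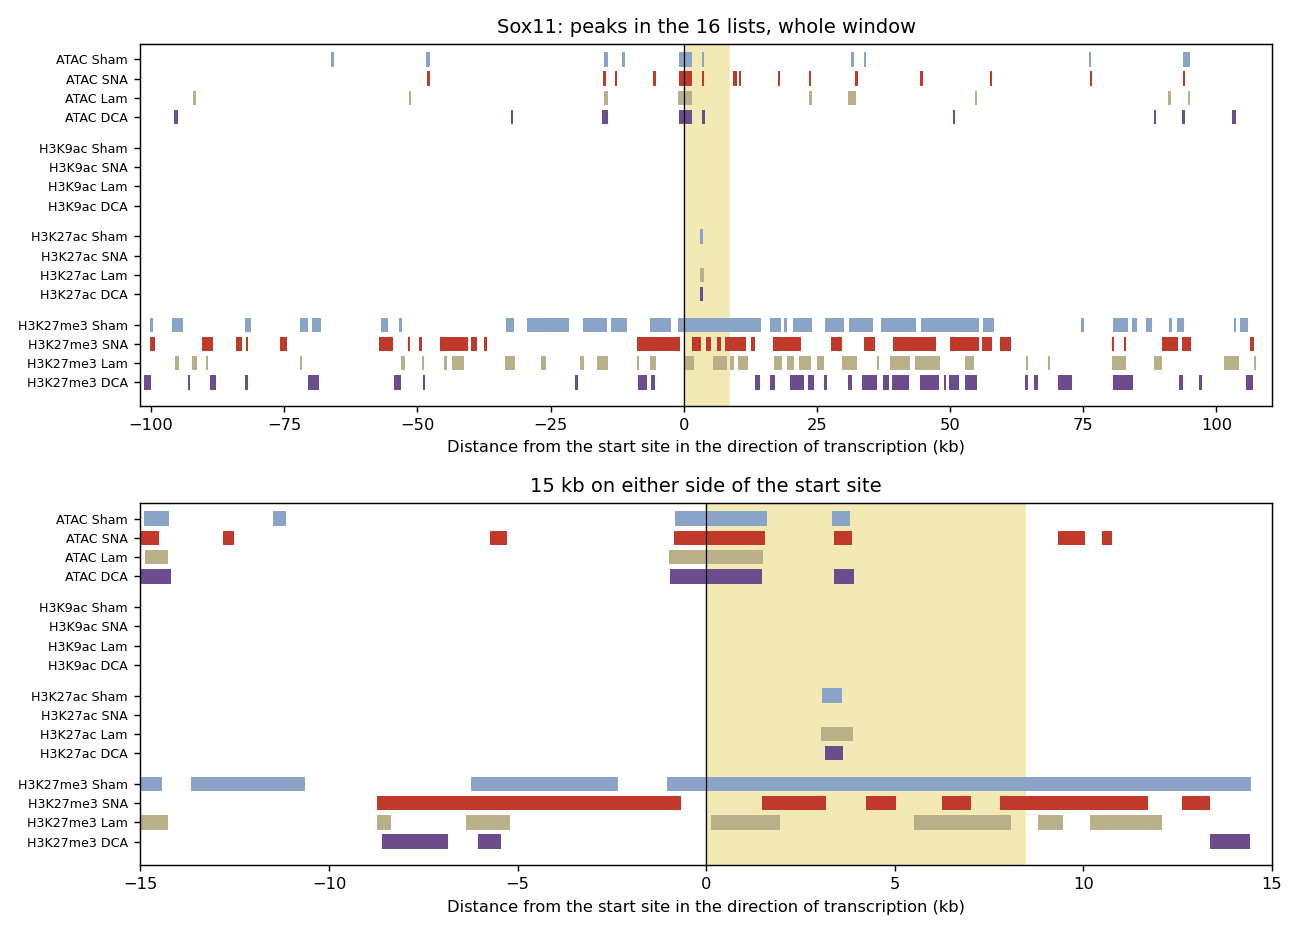
Position of every Sox11 peak in the 16 lists by distance from the start site in kb (horizontal axis, negative is upstream), for the whole window and for 15 kb on either side, with the gene shaded and 1 row per list. The ATAC peak at 0 and the ATAC peak about 14.6 kb upstream are in all 4 rows, the H3K9ac rows are empty, and H3K27ac has 1 site in the gene body that the SNA row lacks.

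Acetylation at Sox11 came down to a single site. The 208.5 kb window held no H3K9ac peak in any list, and the nearest H3K9ac peak to the start was 203 kb downstream in Sham, 206 kb in SNA and DCA and 873 kb in Lam. A window without H3K9ac in all 4 lists was found for 16.9% of genes, but for 184 genes together with an ATAC peak at the start in all 4 lists, or 1.70% of the open genes. H3K27ac was listed once in Sham, Lam and DCA, always within the gene body. The peak was chr12:27339124-27339655 in Sham with 36 reads (25.2 to 49.8) over 3.16, chr12:27338823-27339674 in Lam with 38 reads (26.9 to 52.2) over 3.08, and chr12:27339094-27339570 in DCA with 24 reads (15.4 to 35.7) over 2.11. Their summits were 3.37, 3.33 and 3.34 kb downstream of the start, and they stood in the top 7.94%, 2.59% and 6.73% of their lists. No H3K27ac peak was listed there after SNA, where the nearest one was 873 kb from the start, although an ATAC peak was listed 3.75 kb downstream in SNA with 39 reads over 22.4, as in Sham (41 over 18.3) and DCA (39 over 20.4). This absence was not particular to Sox11. Of the Sham H3K27ac peaks as strong as that of Sox11, 80.4% were without an SNA peak, 4.79% without a Lam peak and 4.62% without a DCA peak, and 22.9% overlapped an ATAC peak. The share without an SNA peak was 73.9% for DCA peaks as strong as that of Sox11, but 44.9% for such Lam peaks. What sets the SNA list of H3K27ac apart was not tested.

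H3K27me3 was the most frequent mark at Sox11. In its window Sham and SNA each had 29 peaks, Lam had 33 and DCA had 30, and 5.58%, 8.66%, 11.4% and 2.84% of genes had as many. Their sum of 121 was matched or exceeded by 5.01% of genes, whose median was 44. The share of the window they covered was 42.0% for Sham, 31.0% for SNA, 22.9% for Lam and 19.4% for DCA. In Sham the widest one ran 15486 bp over chr12:27328273-27343758, across the whole gene and its start. The peaks within 1 kb of the start were chr12:27343377-27351440 in SNA and chr12:27340764-27342590 in Lam. The gene body held 4 peaks in SNA, 2 in Lam and none in DCA. These peaks were weak. Their fold lay between 1.00 and 1.91 over the 4 lists, none passed a q of 0.05, and the median fold of 1.11 in Sham equalled that of the whole list. The read depth behind H3K27me3 is unknown, so these peak numbers cannot be set against the counting error of each peak. In the merged H3K27me3 regions, 7 of 40 at Sox11 were in all 4 lists, or 17.5% against 3.82% of all 321332 regions. Merging joined peaks in chains, so peaks of different lists in a merged region need not overlap. In chr12:27247428-27254512, the Lam peak (chr12:27252950-27254512) and the DCA peak (chr12:27248935-27249722) did not. The merged region over the gene ran 23168 bp, and the DCA peaks in it lay outside the gene. A region in all 4 lists is thus not always a site shared by all 4.

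Sox4 showed acetylated chromatin at the promoter and at a site upstream. Its ATAC peak at the start was 2044, 2227, 2076 and 2185 bp wide in Sham, SNA, Lam and DCA, with 59, 61, 54 and 48 reads at the strongest summit over backgrounds of 17.8 to 20.6. The H3K27ac peak at the start was the strongest of the Sox4 window in Sham, Lam and DCA. In Sham it had 77 reads (60.8 to 96.2) over 3.23, a fold of 18.4 and a place in the top 0.941% of its list at chr13:28953277-28954354. In Lam it had 48 reads (35.4 to 63.6) over 3.08 and in DCA 53 reads (39.7 to 69.3) over 3.17, and in these 3 lists the summit lay 0.30 kb upstream of the start. In SNA the peak at chr13:28953225-28953575 lay inside the gene, with its summit 0.25 kb downstream, 24 reads (15.4 to 35.7) over 6.59 and a fold of 3.20. A second peak within 1 kb of the start was at chr13:28952659-28952938 in SNA and chr13:28952643-28952938 in Lam, with 15 reads in each. Another H3K27ac site, 7.57 kb upstream, was listed in Sham with 29 reads over 2.91 and in DCA with 20 over 3.81, and not in SNA or Lam. Of the Sham peaks as strong as that one, 81.7% had no SNA peak and 11.0% no Lam peak.

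H3K9ac at Sox4 lay just inside the gene rather than on the start site. The DCA list held 1 block of 2879 bp at chr13:28950504-28953382 with 47 reads over 10.2. Sham held 3 peaks in the gene, SNA 4 and Lam 3, of 259 to 665 bp. The peak nearest the start was 0.51 kb downstream in Sham, 0.62 kb in DCA, 1.12 kb in SNA and 1.39 kb in Lam, and the near edge of the Lam peak was 1.16 kb from the start. The absence of Lam among the start-site lists therefore rests on the distance chosen, and with 5 kb Sox4 had a peak in 12 of the 16 lists.

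**Figure D3:**
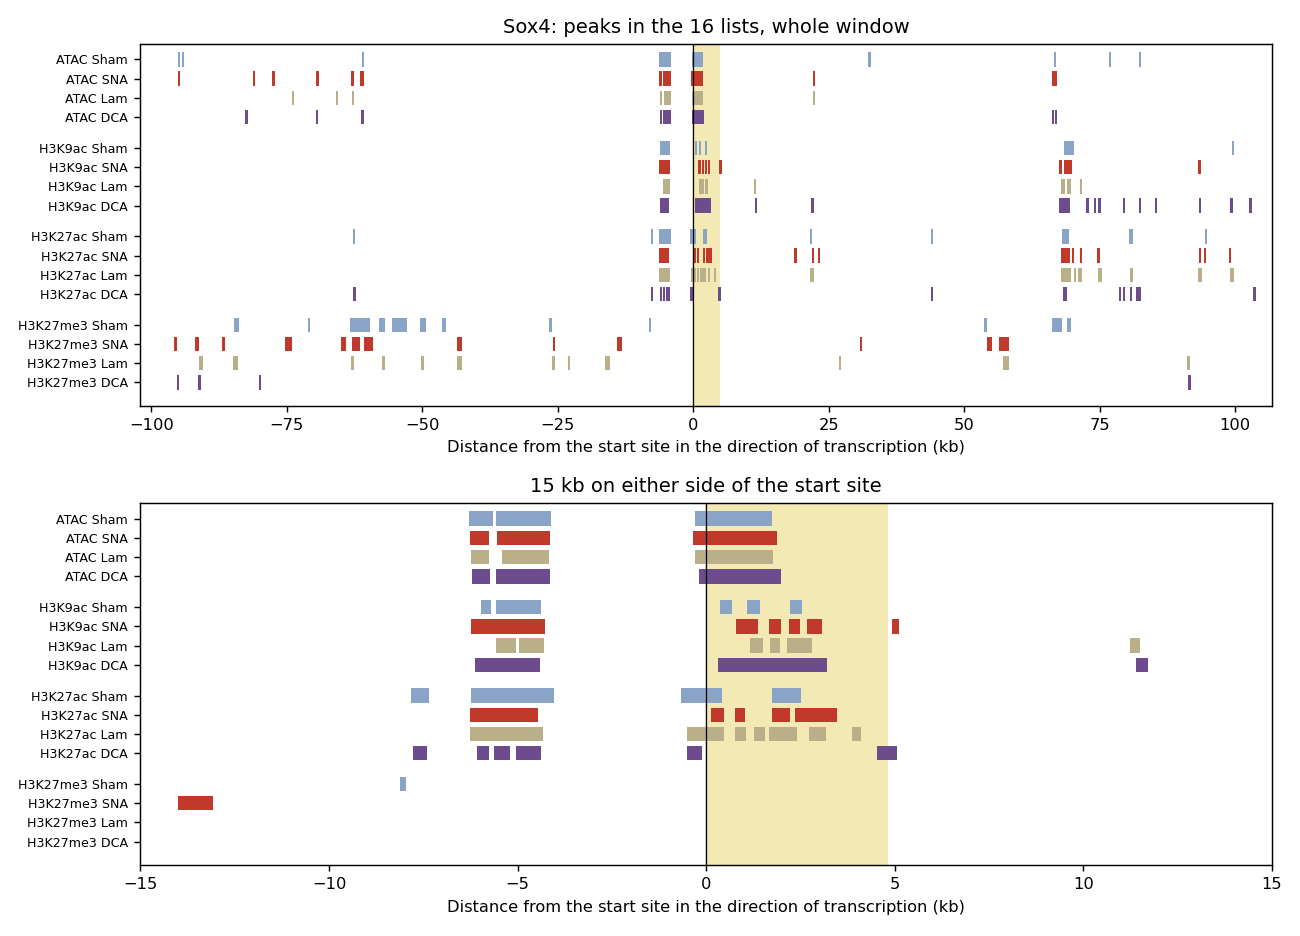
Position of every Sox4 peak in the 16 lists by distance from the start site in kb (horizontal axis, negative is upstream), for the whole window and for 15 kb on either side, with the gene shaded and 1 row per list. About 5.35 kb upstream and about 69.3 kb downstream, all 8 acetylation rows hold a peak, and the upstream site also holds ATAC peaks in all 4 rows.

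The site upstream of Sox4 was the one place outside a promoter, in the windows of Sox11 and Sox4, where ATAC, H3K9ac and H3K27ac were listed together after every operation. ATAC peaks of 1245 to 1447 bp had summits 5.06 to 5.11 kb upstream, with 56 reads in Sham (42.3 to 72.7), 54 in SNA (40.6 to 70.5), 57 in Lam (43.2 to 73.9) and 80 in DCA (63.4 to 99.6). DCA was highest, and its interval overlapped that of Lam. This was the strongest ATAC peak of the window in Lam and DCA, and the start site was the strongest in Sham and SNA. A smaller ATAC peak 6.04 to 6.06 kb upstream was also in all 4 lists, with 49, 54, 47 and 43 reads. H3K9ac had 47, 49, 50 and 43 reads at its strongest summit there, 5.33 to 5.41 kb upstream, over backgrounds of 6.55, 6.79, 11.5 and 9.59. H3K27ac had 26, 37, 30 and 21 reads over 7.11, 6.19, 3.40 and 2.21. The H3K27ac interval was a single peak of 2201 bp in Sham, 1806 bp in SNA and 1922 bp in Lam, and 3 peaks of 327 to 682 bp in DCA.

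A further acetylated stretch lay downstream of Sox4, with summits 68.1 to 69.4 kb from the start. The H3K9ac peak with the smallest p there had 45 reads over 6.34 in Sham, 39 over 5.19 in SNA, 45 over 7.67 in Lam and 50 over 5.75 in DCA. H3K27ac peaks had 26 over 3.23, 38 over 7.18, 30 over 4.04 and 15 over 2.11. No ATAC peak overlapped it in any list, and the closest ATAC peaks were 66.4 to 66.9 kb downstream in Sham, SNA and DCA. H3K27me3 at Sox4 was near the level of the median gene, with 12 peaks after Sham and Lam, 13 after SNA and 4 after DCA against medians of 11, 15, 11 and 5 in that order, and 54.5% of genes had as many over the 4 lists. Of these peaks 1 was within 10 kb of the gene, and none passed a q of 0.05.

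Sox12 had the most ATAC reads at its promoter of the 3 genes in each list, and acetylation there differed between lists. ATAC peaks in all 4 lists lay over its start and the part of its gene body nearest the start, merged to chr2:152395998-152398362. The rest of the gene held no ATAC peak in any list. The strongest summit in the gene, 1.66 to 1.70 kb downstream of the start, had 118 reads in Sham (97.7 to 141), 144 in SNA (121 to 170), 128 in Lam (107 to 152) and 133 in DCA (111 to 158), over backgrounds of 31.5 to 38.2. A separate peak 0.88 to 0.92 kb upstream had 123, 157, 135 and 122 reads, and the SNA peak at chr2:152398691-152399418 was the strongest of the window in SNA, with a fold of 4.21. The intervals of SNA (133 to 184) and Sham (102 to 147) overlapped. A further ATAC site in all 4 lists lay 8.23 to 8.26 kb upstream, nearer to Zcchc3, and had 73, 96, 86 and 113 reads.

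Acetylated peaks within 1 kb of the Sox12 start were listed in DCA alone for H3K9ac and in SNA alone for H3K27ac. In DCA an H3K9ac peak of 1567 bp at chr2:152396632-152398198 had 45 reads (32.8 to 60.2) over 9.81, where the median peak of that list had 26. In SNA the start site had an H3K27ac peak at chr2:152398419-152398674 with 19 reads (11.4 to 29.7) over 3.47 and a fold of 4.25, as many reads as the median peak of that list. A further H3K27ac peak of SNA at chr2:152399146-152399498 had 21 reads over 3.22. In the gene body, 1.14 to 1.36 kb downstream, H3K27ac was listed in SNA with 23 reads, in Lam with 15 and in DCA with 16, and not in Sham. At the commonest background the weakest listed H3K27ac peak had 9 reads in Sham and Lam, 10 in SNA and 7 in DCA. Within 10 kb of Sox12, H3K27ac peaks numbered 6 after SNA and 0 after Sham, and 1 after DCA and 4 after Lam.

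**Figure D4:**
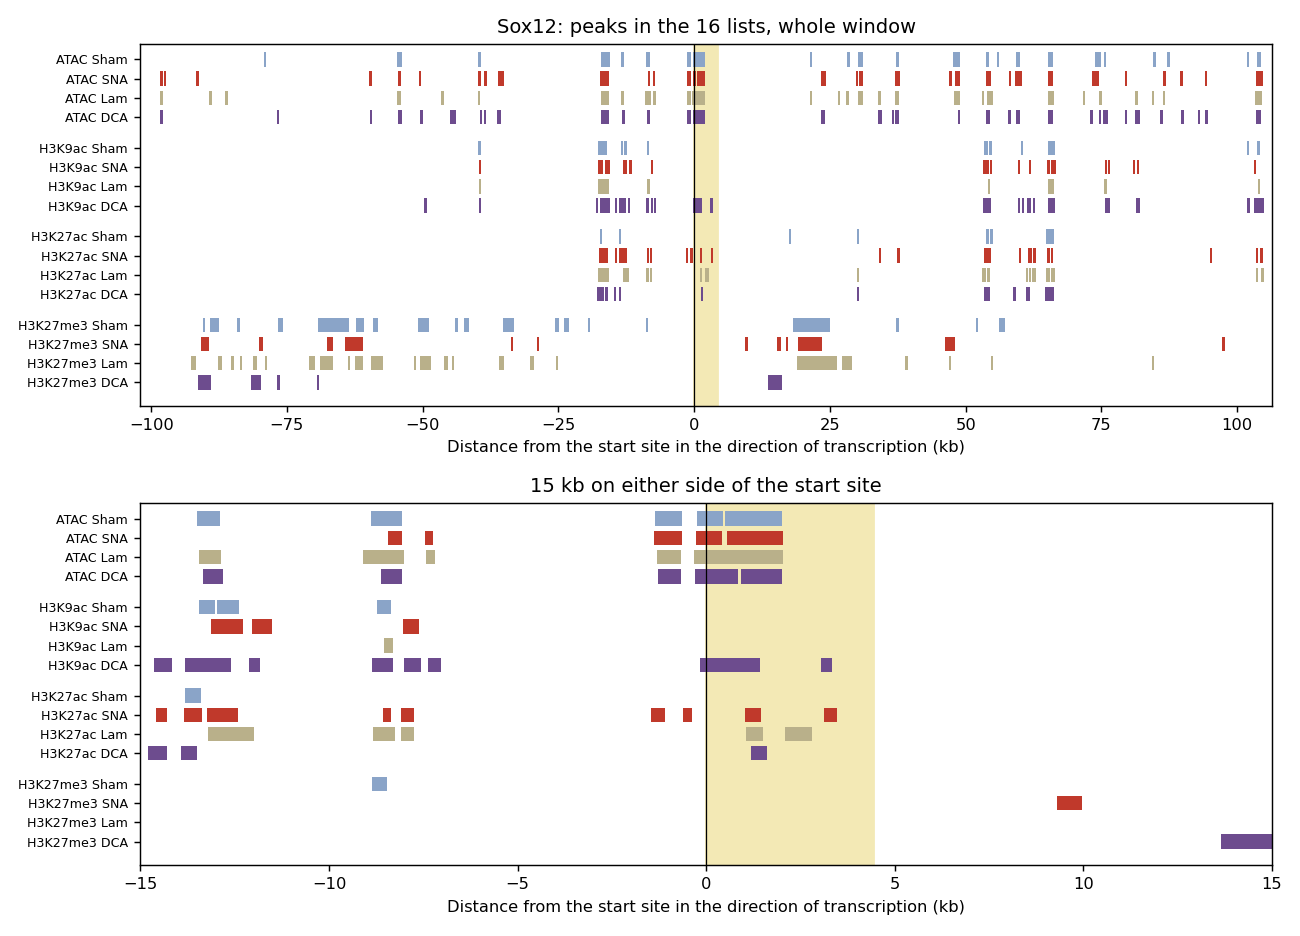
Position of every Sox12 peak in the 16 lists by distance from the start site in kb (horizontal axis, negative is upstream), for the whole window and for 15 kb on either side, with the gene shaded and 1 row per list. ATAC peaks line up in all 4 rows in the gene, just upstream of it and about 8.25 kb upstream, while H3K9ac over the gene is in the DCA row alone.

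The first comparison asked whether the SoxC genes had more or fewer peaks after an axotomy than after its control. A gene was called when its number of window peaks plus 1 differed by 1.5 times or more. In the order Sham, SNA, Lam and DCA, Sox11 had 12, 15, 11 and 9 ATAC peaks, Sox4 had 10, 12, 7 and 8, and Sox12 had 26, 32, 29 and 34. None of the 3 was called higher for SNA against Sham (13.9% of genes were) or lower (5.32%), and none was called higher (9.96%) or lower (3.64%) for DCA against Lam. In H3K9ac none was called higher (30.1%) or lower (2.63%) for SNA. For DCA, Sox4 with 14 against 9 peaks and Sox12 with 24 against 7 were called higher, as were 49.0% of genes, and none lower (1.86%). The Sox4 ratio lies on the threshold, and its direction turned within 50 kb (4 against 6 peaks), within 10 kb (3 against 6) and with lists of equal size (4 of 13 peaks from DCA).

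In H3K27ac, Sox12 with 21 against 8 peaks was called higher for SNA, as were 43.1% of genes. Sox11 with 0 against 1 peak was called lower, as were 5.88% of genes, and that call rests on 1 peak. For DCA none of the 3 was called higher (3.11%) or lower (29.8%), with 14 against 15 peaks at Sox4 and 11 against 16 at Sox12. In H3K27me3 none was called higher (17.9%) for SNA and Sox12 with 12 against 19 peaks was called lower (17.6%). For DCA none was called higher (2.37%), and Sox4 with 4 against 12 and Sox12 with 5 against 24 were called lower, as were 65.4% of genes. Sox11, with 30 against 33, was among those not called, at a ratio of 0.912 where the median gene had 0.500. The Sox12 calls describe a window shared with 9 other genes, and few of the peaks counted were nearest to Sox12.

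The same numbers were set against the sizes of the whole lists. Of the SNA and Sham peaks of Sox12 in H3K27ac, 72.4% were SNA peaks (exact 95% binomial interval 52.8% to 87.3%), and the whole lists gave 63.4%, which lies inside that interval. Of its DCA and Lam peaks in H3K9ac, 77.4% were DCA peaks (58.9% to 90.4%) against 63.9% in the whole lists. In H3K27me3 the share from DCA was 17.2% (5.85% to 35.8%), just below the 36.9% of the whole lists. For Sox4 the 8 shares lay between 25.0% and 60.9%, and each interval included the value of the whole lists. For Sox11 the ATAC share from SNA was 55.6% (35.3% to 74.5%) against 53.2%, and the ATAC share from DCA was 45.0% (23.1% to 68.5%) against 51.0%. At these peak numbers a difference between the SoxC genes and the rest of the lists was thus not detectable in ATAC. Between the controls, Lam held 11 and Sham 12 ATAC peaks at Sox11, 7 and 10 at Sox4, and 29 and 26 at Sox12.

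**Figure D5:**
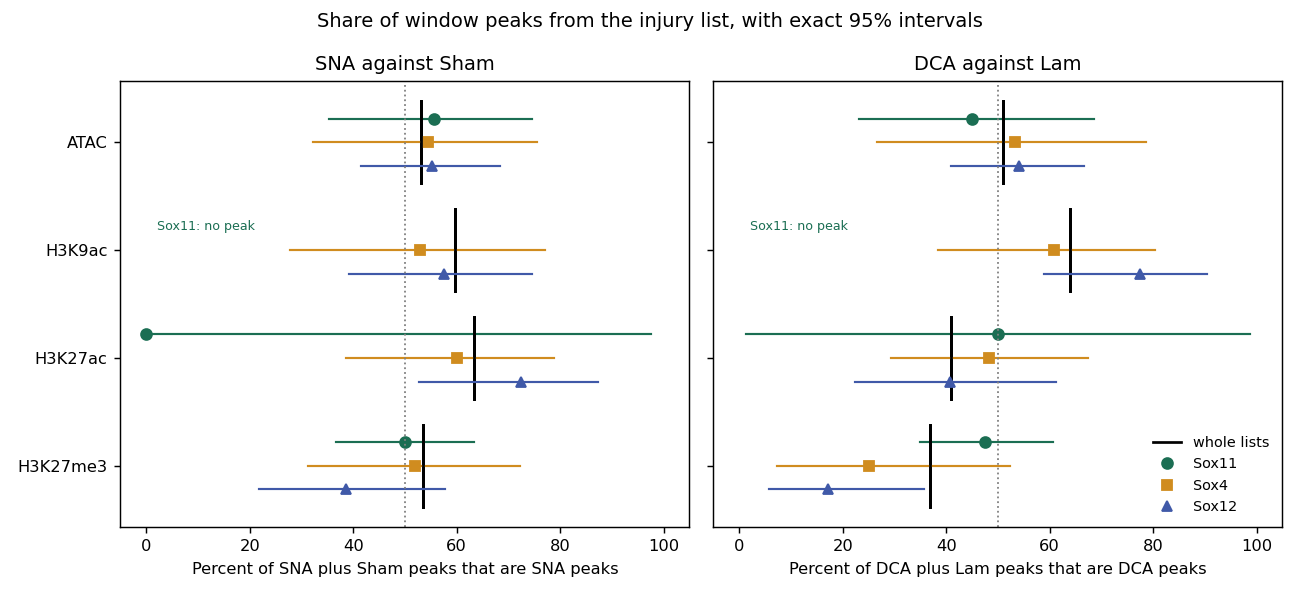
Percent of the peaks of an injury list and its control list that come from the injury list (horizontal axis) for each gene and assay, with exact 95% intervals that cover counting error only and a black line for the whole lists. The Sox12 intervals for H3K9ac in DCA, H3K27ac in SNA and H3K27me3 in DCA leave out 50%, and of these the last also leaves out the value of the whole lists. Few of the Sox12 window peaks of these marks were nearest to Sox12.

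Counting places rather than peaks, a peak was taken as unmatched when no peak of the other list overlapped it. At Sox11, 9 of 15 SNA peaks in ATAC had no Sham peak (interval 32.3% to 83.7%), against 59.6% of the whole SNA list, and 6 of 12 Sham peaks had no SNA peak (50.0% against 53.8%). For DCA, 7 of 9 peaks had no Lam peak (77.8% against 57.9%) and 9 of 11 Lam peaks had no DCA peak (81.8% against 55.6%). Between the controls, 7 of 11 Lam peaks had no Sham peak (63.6% against 59.4%) and 8 of 12 Sham peaks no Lam peak (66.7% against 58.4%). The interval of each Sox11 share included the value of its whole list. At Sox4 these shares ran from 40.0% to 70.0%. At Sox12 they ran from 26.9% to 50.0%, and each was below the value of its list. The lowest, 7 of 26 Sham peaks without a Lam peak (11.6% to 47.8%), was the one Sox12 share whose interval left out the list's value.

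Few of the unmatched injury peaks met acetylation. Of the SNA peaks in ATAC without a Sham peak, 0 of 9 at Sox11, 1 of 6 at Sox4 and 0 of 16 at Sox12 overlapped an H3K9ac or H3K27ac peak of SNA, against 11.0% of all such peaks. The one at Sox4 was chr13:28931316-28931598, 22.2 kb downstream of the start, with 34 reads over 17.3, and it overlapped an H3K27ac peak. It was also in the Lam list. Of the DCA peaks without a Lam peak, 1 of 7 at Sox11, 0 of 5 at Sox4 and 2 of 17 at Sox12 did so, against 11.3% of all. The one at Sox11 was the gene-body site at chr12:27338810-27339338, which overlapped H3K27ac and was in the Sham and SNA lists too. The Sox12 peaks were chr2:152321777-152322796 and chr2:152338019-152338744, both over H3K9ac and 75.8 and 59.7 kb downstream of its start among the neighbouring genes.

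Regions present after both axotomies and after neither control differed among the genes. In ATAC there were 0 of 31 at Sox11, 2 of 19 at Sox4 and 9 of 53 at Sox12, or 0%, 10.5% and 17.0%, against 4.26% of all ATAC regions. Regions in both controls and neither axotomy numbered 2, 0 and 3, and 2.62% of all regions had that pattern. Regions in all 4 lists made up 6.45% at Sox11, 15.8% at Sox4 and 22.6% at Sox12, against 10.0% of all. In H3K9ac, 6 of 24 Sox12 regions were in SNA and DCA alone, or 25.0% against 8.52% of all regions. The closest of the 6 was 7.79 kb upstream of the start, and 0 of the 19 H3K9ac peaks of SNA in the window were nearest to Sox12. Regions of these patterns were not chosen by a test, and the closest of the 9 ATAC regions was 23.8 kb downstream of the Sox12 start.

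The other Sox genes gave a similar split at the start site. Of 16, 10 had a start site in the promoter table, and 9 of these had an ATAC peak there in all 4 lists, as did 61.9% of all genes with a start site. Sox2, Sox6, Sox8, Sox13 and Sox15 had H3K9ac at the start in all 4 lists, where 50.4% to 59.9% of all genes had it in each list. Sox1, Sox14 and Sox21 resembled Sox11 in that the start was open in all 4 lists without acetylation in any. This state was found at 8.86% of all genes open in all 4. Sox1, Sox14 and Sox21 each had H3K27me3 there in 3 or 4 lists, a combination found at 4.44% of the open genes. In ATAC window peaks, Sox3 with 2 against 0 was the one of the 16 called higher and none was called lower for SNA (13.9% and 5.32% of all genes), with a median ratio of 1.17 against 1.14 over all genes, and none was called for DCA.

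SoxC partners and reported targets were read the same way from a list of 14, of which 13 had a start site. In 12 the start was open in all 4 lists, against 61.9% of all genes, and Dcx, a microtubule protein of young neurons, was the exception, with no ATAC, H3K9ac or H3K27ac peak in its window in any list. Tubb3, Tead2, Arpc3, Tank and Mex3a carried H3K9ac and H3K27ac there in all 4 lists, as did 46.6% of all genes open in all 4. Prox1, Bdnf, Crmp1, Pou3f3 and Neurog2 were open in all 4 lists without acetylation in any, as were 8.86% of those genes. For SNA in ATAC, Stmn1 with 44 against 27 peaks and Pou3f3 with 18 against 9 were called higher and none lower, where 13.9% and 5.32% of all genes were, and the median ratio was 1.17. For DCA, Neurog2 with 24 against 13 was called higher, as were 9.96% of all genes.

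Across all 16 lists, the genes whose window counts were most like those of Sox11 were Gm4894, Glrp1, Ccl3, Sox9 and Nps, at Euclidean distances of 1.30 to 1.57 on the log2(peaks + 1) scale, where the median gene was 9.81 away. For Sox4 they were Cyp2j8, Olfr376, Cyp2j6, Nr2f1 and Sycp1 (1.17 to 1.55, median 5.65), and for Sox12 Alox5ap, Fam71a, Alppl2, Slc35f6 and Ctsd (0.962 to 1.12, median 4.92). The SoxC genes were less alike among themselves. Sox4 and Sox12 were 3.86 apart, Sox11 and Sox4 9.95, and Sox11 and Sox12 11.0, so the distance from Sox11 to Sox4 was close to that of Sox11 to a median gene. These distances are a description over lists that share libraries and depth.

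The lists as a whole bear on these values in a few ways. Over the 12 ATAC, H3K9ac and H3K27ac lists the commonest background was 16.2 to 18.4 reads in ATAC, 4.98 to 5.67 in H3K9ac and 2.11 to 3.08 in H3K27ac. The weakest peaks listed at it had 27 to 30, 14 to 17 and 7 to 10 reads. The H3K9ac folds fitted reads scaled to between 0.315 and 0.918 of their number, closest to 1 in DCA. The H3K27ac folds fitted unscaled reads in Sham, Lam and DCA and reads scaled to 0.759 in SNA, and the part of this scaling in the missing SNA peaks at Sox11 and Sox4 was not tested. The DCA list of H3K9ac is also the longest list with 89647 peaks against 50332 to 74652 in the others. The part of its length and scaling in the higher H3K9ac counts of Sox4 and Sox12 in DCA was not tested. Sensory neuron markers had an ATAC peak at the start in all 4 lists in 4 of 6 genes with a start site. Glial markers had it in 3 of 4, macrophage markers in 1 of 4 and markers of tissues not sampled in 1 of 4, which was Cdx2. The share over all genes with a start site was 61.9%. H3K9ac was at the start in all 4 lists in 1 of 6, 3 of 4, 0 of 4 and 0 of 4, in that order. In each list 50.4% to 59.9% of genes had it. Isl1 (neuron), Cd68 (macrophage) and Cdx2 were open in all 4 lists without acetylation at the start, as were 8.86% of open genes. H3K27me3 was listed there in 4, 0 and 3 lists. The part of glia and macrophages in the SoxC peaks was not tested.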

How the data were processed

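The ganglia gave 60 samples, of which 24 were ChIP, 24 input and 12 ATAC, and the authors deposited 16 pooled peak lists, 1 per assay and surgery, so no replicate could be compared. The build was mm10, per the submitters' processing notes. The peak caller's settings are not given in the sources used here. The deposited lists give, for each peak, a score that was not used, the fold (a ratio of signal to local background) and the −log10 p and −log10 q. These values are the authors', and describe or rank peaks within 1 list. Lines of the deposited ATAC lists that repeat a peak for further summits were merged.

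From fold and p, the reads at a summit were recovered as an upper Poisson tail, and 100.00% of peaks in the 12 ATAC, H3K9ac and H3K27ac lists matched within 0.003. H3K27me3 did not allow this, and its depth is unknown. Peaks were assigned to a gene body and 100 kb on either side, by an overlap of at least 1 bp, with RefSeq coordinates of GRCm38.p6. Start sites came from the RefSeq promoter table, which held 17491 of 21883 genes, and all 3 SoxC genes matched. A gene was called when peaks plus 1 differed by 1.5 times or more, with percent_called over all genes as background. Shares have exact (Clopper-Pearson) 95% intervals, and reads have exact Poisson ones. Intervals cover counting error only. The members and gene lists were chosen with earlier results of these data known. The text names the 3 members, every peak within 1 kb of their start sites, ATAC regions in all 4 lists (for Sox12, those nearest to it), unmatched injury ATAC peaks over acetylation, the strongest ATAC peak of each list, and the 5 genes with the closest window counts. Other peaks named were chosen after their values were seen. Alternatives were windows of 50 and 10 kb, start windows of 500 bp and 5 kb, q of at most 0.05, −log10 q of at least 5, lists of equal size, peak centres, nearest gene end, covered bases, and other overlap rules. The calculations were tested on simulated data. Python 3.11.15, numpy 2.4.6, pandas 2.3.3, scipy 1.17.1 and matplotlib 3.10.9 were used.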

Additional observations from a re-analysis of the deposited data

Results flagged for a closer look

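The H3K27ac shares of Sox12 fell on opposite sides of 50% for SNA and DCA. Of its SNA and Sham peaks 72.4% were SNA peaks, and of its DCA and Lam peaks 40.7% were DCA peaks (exact 95% interval 22.4% to 61.2%, which includes 50%), and DCA was not called lower. The whole lists gave 63.4% and 40.9%, on the same sides of 50%. With 1 list per surgery the difference was not tested. Few of these window peaks were nearest to Sox12, with 4 of 21 in SNA and 1 of 11 in DCA.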

How the results depend on the processing

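Of 197 alternatives over 31 results, 178 stayed inside the exact 95% interval of the reported share or within 1.5 times the reported number of lists, 18 moved further and 1 reversed, and 15 gave no value because no peak was left, among them all H3K27me3 shares at a q of at most 0.05. No paired analysis was possible because each list pools its samples, and for the same reason no sample could be left out. Within 10 kb, the SNA share of Sox11 was 75.0% in ATAC (6 of 8 peaks) and 70.0% in H3K27me3 (7 of 10), and that of Sox4 in H3K27me3 was 0% (0 of 1). The DCA share there was 33.3% for Sox4 in H3K9ac, 20.0% for Sox12 in H3K27ac and, reversed, 100% (1 of 1) for Sox12 in H3K27me3. The SNA share of Sox12 in H3K27ac was 100% within 10 kb (6 of 6) and by nearest gene end (4 of 4). By nearest gene end the DCA share of Sox12 in H3K9ac was 100% (2 of 2) and its SNA share in H3K27me3 was 100% (1 of 1). Within 50 kb the DCA share of Sox4 in H3K27me3 was 0% (0 of 6). With lists of equal size Sox4 had 30.8% from DCA in H3K9ac and 37.5% from SNA in H3K27ac. At a −log10 q of at least 5 the SNA share in H3K9ac was 100% for Sox4 (2 of 2) and for Sox12 (3 of 3), and for Sox4 in H3K27ac it was 20.0%. Sox11 had a peak at the start in 4 lists at a q of at most 0.05 and in 3 at a −log10 q of at least 5, against 7. With peaks within 1 kb counted as shared, 31.2% of Sox12's SNA peaks in ATAC had no Sham peak. Since those intervals are wide, some shares inside them still crossed 50% or moved by over 1.5 times. From DCA, Sox11 in ATAC had 45.0%, but 64.3% at a q of at most 0.05, 66.7% within 10 kb and 50.2% by covered bases, and in H3K27me3 it had 47.6%, but 30 of 50 peaks with equal lists. Sox4 from DCA had 53.3% in ATAC and 42.9% within 50 kb, 60.9% in H3K9ac and 40.0% within 50 kb, and 25.0% in H3K27me3 and 44.4% with equal lists. Sox4 from SNA had 52.9% in H3K9ac and 33.3% with equal lists, and 52.0% in H3K27me3, 47.8% with equal lists and 46.4% by covered bases. Sox12 from DCA had 54.0% in ATAC, 45.0% at a −log10 q of at least 5 and 48.6% within 50 kb, and 17.2% in H3K27me3 and 9.09% within 50 kb, and from SNA 57.6% in H3K9ac and 44.0% with equal lists. The cause was not tested. Peak numbers per gene are small, and sites below 27 to 30 ATAC reads were not listed.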

Other observations

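At a site upstream of Sox4, H3K27ac and an overlapping ATAC peak were in different lists. At 62.5 to 62.6 kb upstream, H3K27ac was listed in Sham with 44 reads over 2.91 and in DCA with 21 over 2.54. ATAC peaks overlapping this site were listed in SNA with 41 reads and in Lam with 43, where no H3K27ac peak was listed. The ATAC region there, chr13:29016412-29016664, met only the edge of the H3K27ac region, chr13:29015920-29016498. Beside it, an ATAC region at chr13:29014391-29015090 was in Sham, SNA and DCA, so both lists with H3K27ac also had open chromatin close by.

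In H3K9ac, 8 of 16 Sox4 regions were in DCA alone, or 50.0% against 28.5% of all regions. These peaks had 15 to 28 reads, and the regions lay 22.0 to 103 kb downstream of the start. Within 50 kb of Sox4, DCA held 4 H3K9ac peaks and Lam 6. In H3K27ac, 7 of 24 Sox12 regions were in SNA alone, or 29.2% against 23.2% of all.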
